A study of Mus musculus with 8 samples.

Results

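The TGF-beta ligands, receptors and latency proteins are a set of 10 genes, chosen by name: the ligands *Tgfb1*, *Tgfb2* and *Tgfb3*, the receptors *Tgfbr1*, *Tgfbr2* and *Tgfbr3*, and the latent TGF-beta binding proteins *Ltbp1*, *Ltbp2*, *Ltbp3* and *Ltbp4*. Each of the 10 was measured by 1 probe set of the 22206 on the Clariom S Mouse array, a group of short probes read out together. The arrays carried total RNA from gastrocnemius (GAS) muscles of male C57/Bl6j mice. An adeno-associated virus (AAV) of serotype 1 was injected into the muscle when the mice were about 10 weeks old, and the muscles were taken 12 weeks later, at an age of 22 weeks. Muscles of the group AAV sh-RNA MYTHO (MYTHO-KD, 4 arrays) received a short hairpin RNA against *Mytho*, a gene that takes part in muscle autophagy. The group AAV sh-RNA scrmb (scramble, 4 arrays) received a scramble hairpin in the opposite leg. Both groups therefore carried virus, and a muscle without injection was not analysed here. The hairpins were driven by the U6 promoter, which is active in most cell types, so that the promoter itself does not limit the knockdown to muscle fibres. The paper describes serotype 1 as one that favours skeletal muscle cells. Which cell types carried the knockdown was not tested here.

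TGF-beta is made as a precursor whose propeptide stays wrapped around the mature ligand and keeps it latent. The propeptide is linked to a latent TGF-beta binding protein (LTBP), which ties the complex to fibrillin and fibronectin fibres until integrins, proteases or thrombospondin release the ligand. The free ligand binds TGFBR2, which brings in and phosphorylates TGFBR1, and TGFBR1 phosphorylates the transcription factors SMAD2 and SMAD3. In skeletal muscle this pathway is known for driving fibroblasts to make matrix and for restraining the differentiation of muscle precursor cells.

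The targeted gene was low in the MYTHO-KD muscles. *D230025D16Rik*, the symbol of *Mytho* on the array, averaged 7.71 (log2 signal) in MYTHO-KD and 10.02 in scramble, a difference of -2.31 (standard error 0.304, adjusted p = 0.0138, limma) that left 20.2% of the scramble signal. The deposited table gives the authors' average and standard deviation (SD) of each group and not the single arrays, so whether the arrays of the groups overlapped could not be read. Averages ran from 3.18 to 19.93 over all probe sets, with a median SD of 0.27 in each group. The samples had the markers of muscle, with 7 of 10 myofibre markers, among them *Acta1* and *Myh4*, at averages over 19 in both groups.

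Most TGF-beta genes had a somewhat higher average in MYTHO-KD, and the clearest differences were those of *Tgfb3*, *Ltbp4* and *Tgfb1*. In the group averages 8 of 10 genes were higher in MYTHO-KD and 2 were lower, against 46.9% of all probe sets higher and 51.4% lower. The median difference of the 10 was 0.345 (log2, MYTHO-KD minus scramble), against -0.01 over all probe sets. None reached the thresholds that the study's methods use for a call, at least 2-fold with an unadjusted p under 0.05, with p recomputed here. This was 0 of 10, against 0.86% of all probe sets called higher, 0.257% called lower and 1.12% in either direction. None had an adjusted p under 0.05 either, in limma's moderated test from the group averages and SDs (0.275% of all probe sets did, 0.18% higher and 0.0946% lower). At an unadjusted p under 0.05 there were 3 of 10, *Tgfb3*, *Ltbp4* and *Tgfb1*, and each of them was higher in MYTHO-KD (6.48% of all probe sets were higher at this limit and 5.52% were lower). The same 3 were the only members beyond 1.5-fold at that p, a limit passed upward by 3.54% of all probe sets, downward by 2.25% and in either direction by 5.8%.

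**Figure D1:**
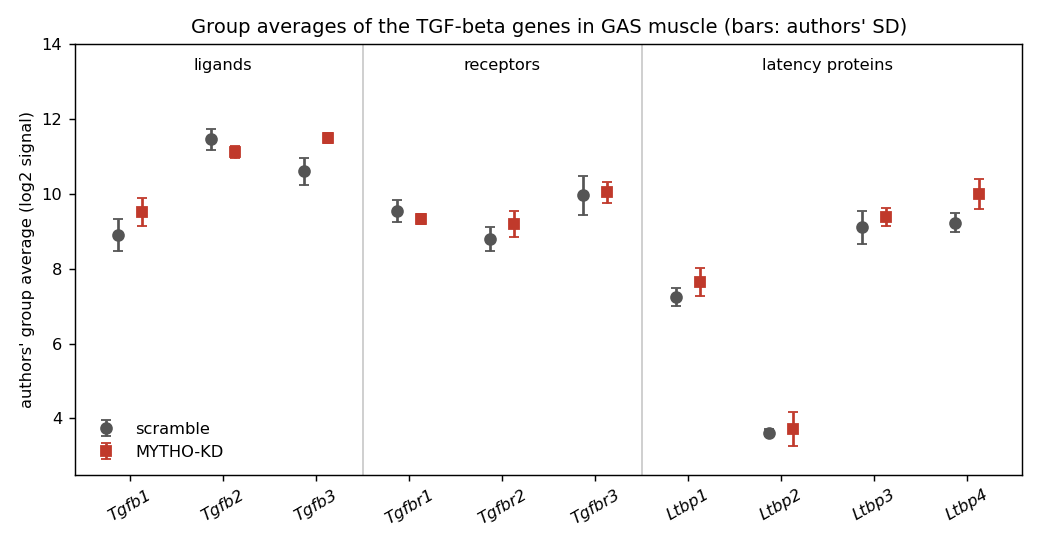
Authors' group averages (log2 signal, y axis) of the 10 TGF-beta genes (x axis) in scramble (grey circles) and MYTHO-KD (red squares), with bars for the authors' SD of each group. The SD bars of *Tgfb3* and *Ltbp4* do not meet, and *Ltbp2* lies near the lower end of the scale in both groups.

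The averages of the ligands lay in different directions. *Tgfb3*, the isoform known for its part in palate closure and wound repair, had an authors' average of 11.49 (log2) in MYTHO-KD with an SD of 0.13, and of 10.60 in scramble with an SD of 0.36. The averages lay further apart than the SDs reach, since 1 SD below the MYTHO-KD average was 11.36 and 1 SD above the scramble average was 10.96. The difference of 0.89 (standard error 0.196, 95% interval 0.46 to 1.32) corresponds to 1.85-fold, with an unadjusted p of 0.000701 and an adjusted p of 0.0920 in limma's test. It was the largest difference among the members, and the MYTHO-KD arrays varied less for this gene than the scramble arrays. *Tgfb1*, the isoform most tied to fibrosis and immune control, averaged 9.52 in MYTHO-KD (SD 0.37) and 8.90 in scramble (SD 0.42). Its difference of 0.62 (standard error 0.244, interval 0.09 to 1.15) amounts to 1.54-fold, and the 1 SD ranges of the groups met. Its unadjusted p was 0.0261 and its adjusted p 0.339 (limma); without moderation the unadjusted p was 0.0686, and with unequal variances 0.0693. *Tgfb2*, an isoform that depends on TGFBR3 for tight binding, was the only ligand with a lower average in MYTHO-KD, 11.12 (SD 0.16) against 11.45 (SD 0.28). Its difference of -0.33 (interval -0.73 to 0.07) left 79.6% of the scramble signal and did not pass (unadjusted p = 0.0950, limma). Whether the ligands differed from each other in their response was not tested, because their values come from the same arrays and the table does not show how they vary together.

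For *Tgfb1* and *Ltbp4*, which were higher at an unadjusted p under 0.05, and for *Tgfb2*, the ligand with a lower average, the 250 bases before a RefSeq start are printed here (GRCm38.p6, the assembly behind mm10), because their motifs differ. Letters run 5′ to 3′ on the strand of the gene, and capitals mark the motifs that a search of both strands found among a TATA box (TATAAA), a GC box (GGGCGG), a SMAD-binding element (CAGACA), an AP-1 site (TGANTCA), an E-box (CACGTG) and a CCAAT box (CCAAT).
*Tgfb1* (chr7:25686752-25687001, plus strand): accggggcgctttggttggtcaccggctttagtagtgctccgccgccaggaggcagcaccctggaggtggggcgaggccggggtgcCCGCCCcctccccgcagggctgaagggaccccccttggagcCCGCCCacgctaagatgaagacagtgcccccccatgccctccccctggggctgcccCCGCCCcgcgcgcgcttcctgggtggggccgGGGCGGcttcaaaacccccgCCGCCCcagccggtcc
*Ltbp4* (chr7:27337613-27337862, minus strand): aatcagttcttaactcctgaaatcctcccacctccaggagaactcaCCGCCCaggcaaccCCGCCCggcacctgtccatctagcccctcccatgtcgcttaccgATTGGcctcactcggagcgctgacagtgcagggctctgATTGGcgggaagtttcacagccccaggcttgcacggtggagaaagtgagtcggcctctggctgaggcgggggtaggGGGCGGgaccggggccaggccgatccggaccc
*Tgfb2* (chr1:186705990-186706239, minus strand): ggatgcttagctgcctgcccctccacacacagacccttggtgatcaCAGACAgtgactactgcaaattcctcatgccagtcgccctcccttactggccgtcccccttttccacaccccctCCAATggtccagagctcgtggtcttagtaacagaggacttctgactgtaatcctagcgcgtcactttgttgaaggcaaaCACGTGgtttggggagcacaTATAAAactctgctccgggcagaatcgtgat
The *Tgfb1* stretch held 5 GC boxes and had 75.2% G or C, against a median of 52.4% over 32851 RefSeq promoter windows. That of *Ltbp4* held 3 GC boxes and 2 CCAAT boxes at 64.4% G or C, and no TATA box was found in either. The *Tgfb2* stretch, at 53.6% G or C, held a TATA box 31 bases before the start, an E-box 51 bases before it, a CCAAT box and a CAGACA element, and no GC box. Of all windows of this length 32.7% held a GC box, 33.8% a CCAAT box, 12.4% a TATA box, 17.1% the CAGACA element, 6.75% an AP-1 site and 6.02% the E-box. Among the 8 members with an entry in the promoter table used here, the other windows with a GC box were those of *Tgfbr1* and *Ltbp2*. *Tgfbr1* (2 GC boxes, 74.8% G or C) had a lower average in MYTHO-KD and *Ltbp2* (2 GC boxes) a higher one. The windows of *Ltbp1*, *Ltbp3* and *Tgfbr2*, all with higher averages, held no GC box. A relation between motifs and direction was not tested. Promoter windows of *Tgfb3* and *Tgfbr3* were not analysed here. A match of letters describes the sequence only, and the arrays do not show which start a transcript used. The RefSeq start nearest to that of the probe set was taken. It lay 80 bases inside the span of the probe set for *Ltbp4* and 3 bases inside for *Tgfb2*. The RefSeq span of *Ltbp4* begins further upstream, at 27339720, and that of *Tgfb2* at 186709697, so both printed windows lie within the gene.

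No receptor passed the test. *Tgfbr2*, which encodes the ligand-binding kinase, averaged 9.19 in MYTHO-KD (SD 0.35) and 8.78 in scramble (SD 0.32), a difference of 0.41 (interval -0.07 to 0.89; unadjusted p = 0.0873, limma). *Tgfbr1*, the kinase that acts on the SMAD proteins, was at 9.32 (SD 0.13) and 9.54 (SD 0.29), with a difference of -0.22 (interval -0.61 to 0.17). The averages of these partner kinases thus lay in opposite directions, and neither interval excluded 0. *Tgfbr3*, which encodes the co-receptor betaglycan, was at 10.04 (SD 0.28) and 9.96 (SD 0.52), a difference of 0.08 (interval -0.47 to 0.63). The 95% intervals of the receptors leave room for a rise of 1.85-fold for *Tgfbr2* and of 1.55-fold for *Tgfbr3*, and for a fall of *Tgfbr1* to 0.65 of the scramble signal.

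The latency proteins all had higher averages in MYTHO-KD (4 of 4, median difference 0.345), and only *Ltbp4* among them had an unadjusted p under 0.05. *Ltbp4*, a known modifier of muscular dystrophy in mice, averaged 9.99 in MYTHO-KD (SD 0.40) and 9.23 in scramble (SD 0.26). Its difference of 0.76 (standard error 0.221, interval 0.28 to 1.24) corresponds to 1.69-fold, with an unadjusted p of 0.00495 and an adjusted p of 0.191 (limma). Here too the 1 SD ranges did not meet, with 9.59 below the MYTHO-KD average and 9.49 above the scramble average. Among the 10 members this held for *Tgfb3* and *Ltbp4*, and over all probe sets for 7.99%. *Ltbp1*, which binds the precursors of all the ligands, averaged 7.65 (SD 0.38) against 7.24 (SD 0.24), a difference of 0.41 (interval -0.06 to 0.88). *Ltbp3* averaged 9.38 (SD 0.23) against 9.10 (SD 0.45), a difference of 0.28 (interval -0.22 to 0.78). *Ltbp2*, whose protein does not bind latent TGF-beta, was near the floor of the scale at 3.72 (SD 0.46) and 3.62 (SD 0.09), and the authors' software marked it as not expressed in MYTHO-KD. At such signals a difference can be hidden, and its 0.10 (interval -0.38 to 0.58) says little. The other 9 members were marked as expressed in both groups.

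**Figure D2:**
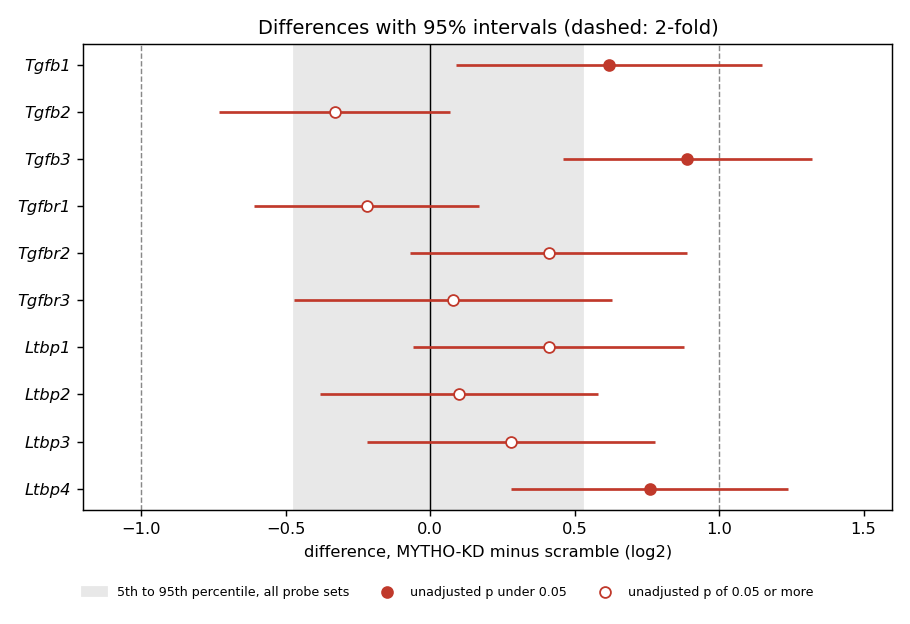
Difference between MYTHO-KD and scramble (log2, x axis) for each TGF-beta gene (y axis), with points for the difference, lines for the 95% interval of limma's moderated test and a grey band from the 5th to the 95th percentile of all probe sets (-0.47 to 0.53); dashed lines mark 2-fold. *Tgfb1*, *Tgfb3* and *Ltbp4* (filled) have intervals above 0 and lie beyond the band.

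Some members lie on the same chromosome (coordinates of the table, mm10). *Tgfb1* lies on chromosome 7 from 25687002 to 25705077, and *Ltbp4* on the same chromosome from 27305136 to 27337692. Between them are 1600058 bases with 30 probe sets, 14 of them with a higher average, whose median difference was -0.01, with 1 at an unadjusted p under 0.05 upward and 0 downward (limma). *Tgfb3* lies on chromosome 12 from 86056743 to 86079041, with *Ltbp2* 1.18 Mb away, and the 18 probe sets between them, 6 with a higher average, had a median difference of -0.11 (0 upward and 2 downward at that p).

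Among genes that store and release the ligands, *Mmp2* and *Fbn1* rose. Of 20 genes for ligand activation and storage 16 had a higher average in MYTHO-KD, with a median difference of 0.12, and 2 were called at 2-fold (0.86% of all probe sets were called higher). *Mmp2*, a gelatinase that can release latent TGF-beta, rose by 1.17 (from 9.90 to 11.07, unadjusted p = 0.00549, adjusted p = 0.199, limma). *Fbn1*, the fibrillin to which LTBPs bind, rose by 1.03 (from 8.12 to 9.15, unadjusted p = 0.0102, adjusted p = 0.246, limma), a call that was lost without moderation and with unequal variances (unadjusted p = 0.0542 in each). The integrin subunit *Itgav* (difference 0.07) and the convertase *Furin* (0.06), which cuts the precursor, were close to 0. *Itgb6*, a subunit of the integrin that activates the latent forms of TGFB1 and TGFB3, had a lower average, from 11.92 to 11.38. Its difference was -0.54 (unadjusted p = 0.0280, adjusted p = 0.344, limma). It was the only 1 of the 20 genes lower at an unadjusted p under 0.05, which is near the 5.52% of all probe sets. *Itgb6*, *Itgav* and *Furin* are named here after their values were seen.

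Co-receptors and ligand-binding proteins had a median difference of 0.42 over 14 genes, 10 of them higher. *Bgn*, which encodes the proteoglycan biglycan, was called at 2-fold, from 10.90 to 12.84 (difference 1.94, adjusted p = 0.0290, limma), and was the only one of 89 pathway genes outside the members with an adjusted p under 0.05. At an unadjusted p under 0.05 there were 6 of 14 genes, all higher (6.48% of all probe sets were higher and 5.52% lower). Among them were *Eng*, the endothelial co-receptor endoglin, with a difference of 0.64, and *Htra1*, a protease that cuts TGF-beta family proteins, with 0.84 (both named after their values were seen).

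In the intracellular part of the pathway 0 of 14 signal transducers and 0 of 13 signal inhibitors were called at 2-fold. Over all probe sets 1.12% were called in either direction, so lists of this length need not hold a call. Over 14 signal transducers the median difference was 0.01, with 7 higher and 6 lower. The lowest p among them was that of *Tgfbrap1*, a receptor-associated protein, which was lower by 0.49 on the log2 scale (difference -0.49, unadjusted p = 0.0287, limma). *Smad2* had a difference of 0.48 (unadjusted p = 0.0573) and *Dab2*, an adaptor of the receptors, 0.68 (unadjusted p = 0.0972). *Smad3* and *Smad4*, named after their values were seen, were at 0.11 and 0.02. Over 13 signal inhibitors the median difference was 0.12, with 9 higher. *Ski*, a repressor of SMAD-driven transcription, had the lowest p (difference 0.59, unadjusted p = 0.00681, adjusted p = 0.209, limma), followed by *Smurf1*, a ubiquitin ligase for the receptors (0.48), and the phosphatase *Ppm1a* (0.42).

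Of 32 genes reported as targets of TGF-beta 28 had a higher average (46.9% of all probe sets did), and the median difference was 0.55. At 2-fold 8 were called, all of them upward (0.86% of all probe sets were called higher). The called genes were *Cdkn1a* (difference 1.75), *Col3a1* (1.43), *Fn1* (1.35), *Ctgf* (1.29), *Cyr61* (1.22), *Comp* (1.14), *Loxl2* (1.06) and *Timp1* (1.04), and none had an adjusted p under 0.05. They encode a cell cycle inhibitor, matrix and matricellular proteins, a lysyl oxidase and an inhibitor of metalloproteases. Only 5 of the 8 calls were left without moderation, where *Comp*, *Ctgf* and *Timp1* lost theirs, and 4 with unequal variances, where *Cdkn1a* did as well. The collagen genes *Col1a1* (difference 0.82, unadjusted p = 0.136, limma) and *Col1a2* (0.72, unadjusted p = 0.120, limma), named after their values were seen, did not pass. At an unadjusted p under 0.05 there were 12 of 32, all higher (6.48% of all probe sets were). Targets often read as a measure of SMAD activity were among the rest, with *Pmepa1* at 0.31, *Skil* at 0.49 and *Smad7* at 0.12, none with an unadjusted p under 0.05; they are named here after their values were seen. The contractile targets *Acta2* (-0.13) and *Tagln* (-0.15), which smooth muscle cells also express, had slightly lower averages and are likewise named after their values were seen. Most of these genes answer to other signals as well, so the list is not particular to TGF-beta.

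**Figure D3:**
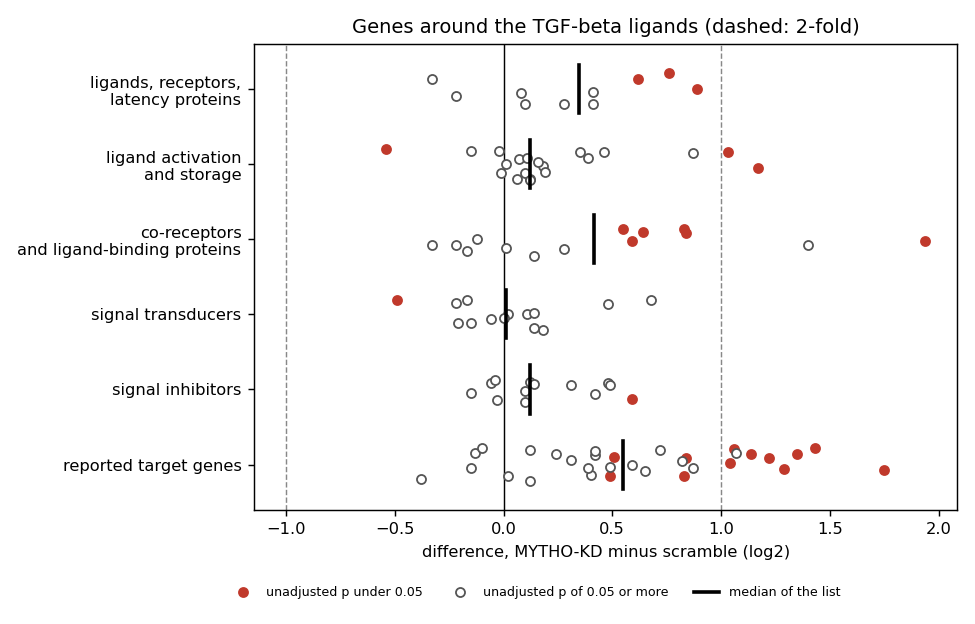
Difference between MYTHO-KD and scramble (log2, x axis) of single genes in the TGF-beta set and the 5 pathway lists (rows), filled red where the unadjusted p was under 0.05, with a black bar at each median and dashed lines at 2-fold. The medians of the transducers (0.01) and inhibitors (0.12) lie near 0 and that of the target genes at 0.55.

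Markers of fibroblasts, macrophages and endothelium had higher averages in the same comparison, and in bulk RNA fewer or more cells of a type cannot be told apart from less or more RNA per cell. All 10 fibroblast markers were higher, with a median difference of 0.77 (46.9% of all probe sets were higher). Their averages ran from 7.07 to 16.86 in MYTHO-KD and from 6.89 to 16.58 in scramble. Of the 10, 4 were called at 2-fold, *Lum*, *Col3a1*, *Pi16* and *Mfap5* (0.86% of all probe sets were called higher). Of the markers of fibro-adipogenic progenitors in the list, both named after their values were seen, *Pdgfra* differed by 0.18 (unadjusted p = 0.342, limma) and *Ly6a* by 0.72 (unadjusted p = 0.00647, limma). All 10 macrophage markers were higher as well (median 0.69, averages from 6.68 to 11.11 in MYTHO-KD and from 6.35 to 9.56 in scramble). Of these *Cd68*, *Lyz2* and *C1qb* were called, again against 0.86% of all probe sets. All 8 endothelial markers were higher (median 0.34), with none called and *Kdr* alone at an unadjusted p under 0.05 (6.48% of all probe sets were higher at this limit). Smooth muscle and pericyte markers (median 0.12, 5 of 8 higher), platelet markers (3 of 6 higher) and T cell markers (0 of 6 higher, median -0.20) had no call at 2-fold. With 1.12% of all probe sets called in either direction, lists this short need not hold one. The platelet marker *Gp9* was lower beyond 1.5-fold (difference -0.68, unadjusted p = 0.0235, limma), as were 2.25% of all probe sets at that limit. The 10 myofibre markers had a median of -0.02, and the 7 at over 19 are close to the highest average of the table, so a change could be masked. Of the other 3, *Myh1*, a fast myosin heavy chain, was higher, from 17.58 to 18.17 (difference 0.59, unadjusted p = 0.00873, adjusted p = 0.230, limma), while *Casq1* was at -0.27 and *Ckm*, named after its value was seen, at -0.05. *Tgfb1* and *Ltbp4* are expressed by several of these cell types, and the part of fibroblasts, macrophages and endothelium in the differences of the TGF-beta genes was not tested. The target list shares 3 genes with the fibroblast markers and 2 with those of smooth muscle, *Acta2* and *Tagln*, which both had lower averages. The 27 targets in no marker list had a median of 0.51, with 25 higher. They still include matrix genes such as *Fn1*, *Comp* and *Loxl2*, and the part of cell content in the target genes was not tested.

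**Figure D4:**
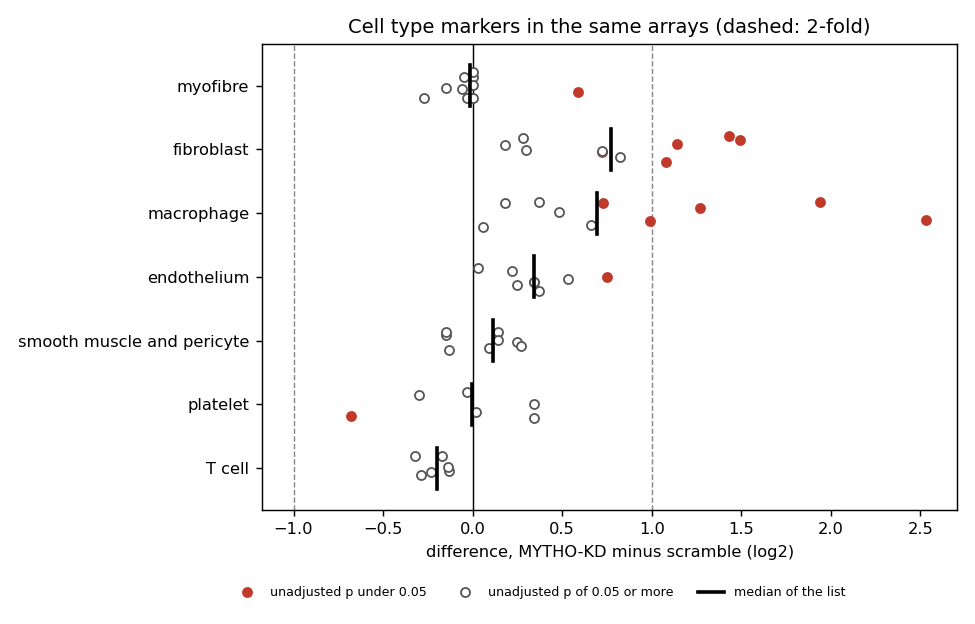
Difference between MYTHO-KD and scramble (log2, x axis) of single marker genes for 7 cell types (rows), filled red where the unadjusted p was under 0.05, with a black bar at each median and dashed lines at 2-fold. Every fibroblast, macrophage and endothelial marker lies above 0, while 9 of 10 myofibre markers lie between -0.27 and 0 and *Myh1* at 0.59.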

How the data were processed

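GAS muscle RNA of 4 MYTHO-KD and 4 scramble muscles was measured on Clariom S Mouse arrays. Per the study's methods the authors used the Transcriptome Analysis Console, with SST-RMA as normalization. They deposited a table of 28 columns whose log2 values give each group's average and SD per probe set (mm10), with an expression flag. The submitters' processing notes name Affymetrix Expression Console and RMA. The kind of average is not stated, and the scale of the SDs was inferred from their size. SST-RMA rescales signals, so fold changes can differ from those of plain RMA. Columns of single arrays numbered 0. Fold changes and p-values of the authors' own comparison were not used. Arrays have no sequencing depth, and 4 arrays per group limit the precision.

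Differences are MYTHO-KD minus scramble. The mean variance of both groups, with 6 residual degrees of freedom, was then moderated by squeezeVar of limma 3.58.1 in R 4.3.3 (prior SD 0.284, 5.85 prior degrees of freedom). Tests were two-sided, with Benjamini-Hochberg adjustment across all 22206 probe sets. If the averages are not plain means, these p-values are only approximate. A planned fit on single arrays was not possible. A call is 2-fold with an unadjusted p under 0.05. These calls rest on the recomputed p-values and are not the study's own, and their numbers over all probe sets differ from those the paper reports. The members and gene lists were chosen with earlier results of these data known, so no list received a test. Named genes are the members, the targeted gene, and in each list those called or, failing that, the 3 with the lowest p. Others are marked. Cell type lists were treated alike, with only their leading genes named. Each gene is given by its probe set of highest mean signal. *Ctgf* and *Cyr61* are the array's symbols for *Ccn2* and *Ccn1*. Promoter windows come from RefSeq (GRCm38.p6). The planned comparison of the ligand proteins was not run. Groups follow the sample titles.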

Additional observations from a re-analysis of the deposited data

How the results depend on the processing

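Of the 7 other settings, recentring moved nothing and the rest leave the group averages of the TGF-beta genes as they are. The differences of the 10 genes were therefore bound to stay the same, and only their p-values could change. *Ltbp2* has values in 6 of these settings, since the filter on dim probe sets removes it. The unadjusted p of *Tgfb3* ran from 0.000353 (limma, trend and robust moderation) to 0.0111 (t-test with unequal variances, without limma) over these settings. That of *Ltbp4* ran from 0.00370 to 0.0234 in the same tests, so that both stayed under 0.05. That of *Tgfb1* ran from 0.0215 to 0.0693, again in these tests, and passed in 5 of 7 settings. With a trend and robust moderation the adjusted p of *Tgfb3* fell to 0.0465 at an unchanged difference of 0.89, while over the settings it ran from 0.0465 to 0.452. Members called higher went from 0 at 2-fold to 3 at 1.5-fold and to 3 at an unadjusted p under 0.05. Over all probe sets, 191 higher and 57 lower calls became 787 and 500 at 1.5-fold, 40 and 21 at an adjusted p under 0.05, and 1439 and 1225 at an unadjusted p under 0.05. Over the pathway lists, 11 higher calls became 18 at 1.5-fold, 1 at an adjusted p, 21 at an unadjusted p, 7 without moderation and 6 with unequal variances, and 0 lower calls became 2 at an unadjusted p under 0.05. Recentring moved nothing, because both groups had the same median. No gene of the set has a further probe set. No paired analysis was possible because the table holds group averages and not single arrays, and for the same reason no replicate could be left out. The tests therefore treated the arrays as independent. Per the study's methods the scramble virus went into the opposite leg, but the sample titles do not tell which arrays share a mouse. For arrays from both legs of the same mice, the p-values and intervals ignore that pairing and could be too large or too small. Very low signals, as for *Ltbp2*, limit what can be detected.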
